A study of Mus musculus with 2 samples.

Results

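The 8 genes described here encode 6 matrix metalloproteinases (Mmp2, Mmp3, Mmp9, Mmp11, Mmp12 and Mmp13) and 2 of their tissue inhibitors (Timp1 and Timp3), out of 5238 genes listed in any of the 3 deposited tables. They were chosen by symbol, and every table entry of these genes was used, over all clusters. There were 6 of them in the FGF2 table (51 entries), 8 in the control table (53 entries) and 7 in the integrated table (45 entries). Mmp9 and Mmp12 had no entry in the FGF2 table, and Mmp12 had none in the integrated table.

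Matrix metalloproteinases are zinc-dependent enzymes that cut collagens, elastin, proteoglycans and other matrix proteins outside the cell. Most are secreted as inactive proenzymes that need a cut to become active, and TIMPs block the active enzymes by binding to their catalytic site. Fibroblasts and macrophages are major sources, and in the embryonic salivary gland the matrix between stroma and epithelium is remodelled while the epithelium branches.

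The series asked how stromal cells of mouse salivary gland organoids divide into subpopulations. It held 1 library of FGF2 organoids, named for a growth factor that acts on mesenchymal cells, and 1 library of control organoids, both labelled as CD-1 mice, salivary gland stroma and embryonic day 16 with 7 added in a unit that is not stated. The labels give 10107 captured FGF2 cells and 5023 captured control cells, held in 10x droplets and tagged at the 3' end of their transcripts, and the sources used here give neither dose nor time of FGF2. With 1 library per group there was no replicate, so no difference below was tested and the order of levels carries no error.

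3 quantities are used. A share is the percentage of cells with a count of the gene, in a cluster as listed by the authors or over a library as recovered from the listed shares by least squares. A relative level is the average plus 1 of a cluster over the average plus 1 of all cells in the same table, so 1 is the level over all cells, and the offset of 1 understates differences of low genes. Relative levels were set against the library's own average and were therefore read only within a library. A gene missing from a cluster is not listed there, which does not mean absent, because entries began at a natural log ratio of 0.25 in size and a share of 25.1%.

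Most of the cells came from clusters with no epithelial, endothelial or leukocyte markers in front. Of 9 fibroblast markers, 5 were listed higher in FGF2 cluster 8, 4 in FGF2 cluster 2 and 5 in control cluster 1. The name fibroblast-like therefore means higher than in the other cells, and clusters without it can hold these markers too. Col1a2 was in 90.6% of all FGF2 cells and 93.2% of all control cells, while Col3a1 was in 32.0% and 92.4%. Epithelial-like clusters were also present in the stroma, with 2.88% of the cells of the FGF2 library and 2.83% (cluster 9) and 0.517% (cluster 13, basal) of those of the control library. In FGF2 clusters 10 and 13 and control clusters 4 and 9 the listed genes had low shares, with medians of 14.4%, 12%, 10.9% and 7%, so low member shares there stand beside low shares of most listed genes. The depth per cell was unknown.

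By the GENCODE M21 annotation of GRCm38 (mm10), 3 of the members lie close together on chromosome 9, in a group of 10 Mmp genes that spans 427.1 kb. Mmp13 occupies chr9:7272514-7283331, Mmp12 chr9:7344381-7369499 and Mmp3 chr9:7445822-7455975, all on the plus strand. Mmp2 lies at chr8:92827291-92853420, Mmp9 at chr2:164940780-164955850, Mmp11 at chr10:75923222-75936496 on the minus strand, Timp3 at chr10:86300372-86349506 and Timp1 at chrX:20870166-20874735. On the opposite strand Mmp12 overlaps Mmp1b, Mmp11 overlaps Chchd10, Timp3 overlaps Syn3 and Timp1 overlaps Syn1. Whether reads were counted by strand is not given in the sources used here, and any sharing of counts within these pairs was not tested. Mmp11 and Chchd10 overlap where both genes begin, while transcripts were tagged at the 3' end. Of the 4 partners, Chchd10 had entries in the tables, and its share was 47.0% of the FGF2 cells and 67.8% of the control cells.

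The 250 bases before the annotated start are shown for the members whose share differed most between the libraries, 2 that were higher with FGF2 (Mmp3 and Mmp13) and 1 that was lower (Mmp11). The sequences are from RefSeq on GRCm38.p6, written 5′ to 3′ on the strand of the gene, and capitals mark the letters that match TGANTCA, the motif of AP-1, a dimer of FOS and JUN proteins.
Mmp3, chr9:7445572-7445821, plus strand: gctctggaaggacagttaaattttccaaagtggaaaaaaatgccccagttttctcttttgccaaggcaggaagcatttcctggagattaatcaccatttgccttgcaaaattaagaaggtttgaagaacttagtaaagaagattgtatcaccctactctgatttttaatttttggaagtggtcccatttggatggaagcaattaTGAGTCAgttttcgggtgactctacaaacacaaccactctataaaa
Mmp13, chr9:7272264-7272513, plus strand: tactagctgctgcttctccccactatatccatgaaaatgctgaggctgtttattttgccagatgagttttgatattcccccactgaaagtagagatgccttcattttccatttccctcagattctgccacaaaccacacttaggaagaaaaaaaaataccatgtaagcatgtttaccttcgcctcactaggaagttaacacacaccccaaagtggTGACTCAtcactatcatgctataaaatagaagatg
Mmp11, chr10:75932503-75932752, minus strand: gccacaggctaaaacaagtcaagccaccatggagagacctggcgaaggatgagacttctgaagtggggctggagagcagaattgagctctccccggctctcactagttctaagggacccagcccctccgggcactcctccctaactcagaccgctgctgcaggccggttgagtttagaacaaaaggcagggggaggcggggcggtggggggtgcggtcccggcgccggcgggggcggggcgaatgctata

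The match lay 46 bases before the start of Mmp3 and 35 bases before that of Mmp13, and the Mmp11 stretch held none. By GENCODE this Mmp11 stretch lies inside the gene, which begins at position 75936496. The bases before that start were not searched. RefSeq promoters were found for 6 of the 8 genes, and Mmp2 and Mmp9 were not matched. Among the 7 promoters of these 6 genes, 3 held TGANTCA on either strand, against 6.75% of 32851 mouse promoters of the same length; the third was the second start of Mmp12, with the match 44 bases upstream. AGGAAG, a core of ETS family sites, was in 5 of the 7 against 29.5% of all promoters, and AACCACA, a RUNX site, was in 1 of 7 (Mmp13, 119 bases upstream) against 4.40%. TATAAA was in 2 of 7 (Mmp3 and Mmp13) against 12.4%, and GGGCGG, an SP1 site, in 3 of 7 (Mmp11, Timp1 and Timp3) against 32.7%. The 5 motifs were searched on both strands and no match overlapped another in these promoters. A match gives the letters of the window and not a bound site.

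**Figure D1:**
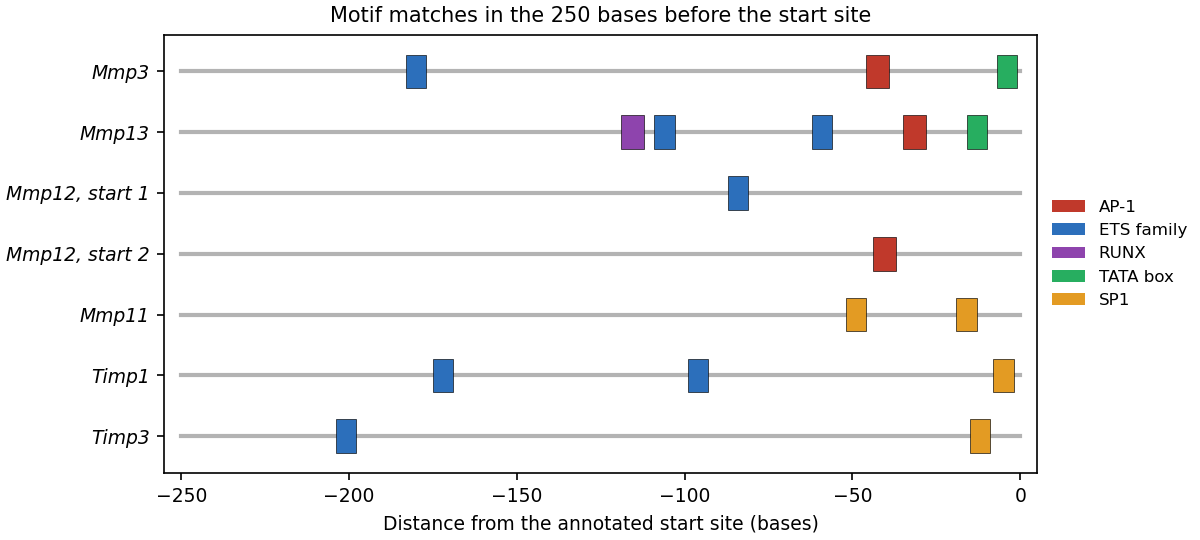
Motif matches in the 250 bases before the annotated start of 6 of the genes, with the distance from the start in bases on the horizontal axis and 1 row per promoter; coloured boxes mark the 5 motifs, each searched on both strands. AP-1 matches sit 46 bases before the start of Mmp3, 35 before that of Mmp13 and 44 before the second start of Mmp12.

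Between the libraries, Mmp3 and Mmp13 were found in a larger share of the cells with FGF2 and Mmp11 in a smaller one. Mmp3, stromelysin-1, which cuts proteoglycans and fibronectin and activates other proenzymes, was detected in 98.9% of FGF2 cells and 53.3% of control cells, a ratio of 1.85. Mmp13, collagenase-3, the main fibrillar collagenase of mouse tissue, was detected in 40.6% of FGF2 cells and 14.3% of control cells, a ratio of 2.83. Mmp11, stromelysin-3, which furin activates inside the cell, was detected in 35.4% of FGF2 cells and 57.7% of control cells, a ratio of 0.613.

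The other 3 members listed in both libraries stayed within 1.5-fold. Mmp2, gelatinase A, which cuts denatured and basement membrane collagens, was in 91.8% of FGF2 cells and 77.4% of control cells. Timp1, a secreted inhibitor of many MMPs, was in 92.6% of FGF2 cells and 82.3% of control cells. Timp3, an inhibitor that stays bound to the matrix and also blocks ADAM proteases, was in 45.3% of FGF2 cells and 45.6% of control cells, the closest pair of values among the 6. Mmp2 and Timp1 could not have passed the rule, because a control share above 66.6% leaves no room for a ratio of 1.5, which held for 1141 of the 2323 genes compared. Read as odds ratios, which have no such ceiling, they were 3.24 for Mmp2 and 2.69 for Timp1, and 20.2% of all genes were then at least 1.5-fold higher.

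Of all 2323 genes listed in both library tables, 7.53% were at least 1.5-fold higher and 15.1% at least 1.5-fold lower in the FGF2 library. Of the 6 members compared, 2 were higher and 1 was lower, and the single lower gene is a share close to that of all genes. With a 2-fold rule, Mmp13 was higher and no other member passed. Mmp2, Mmp3 and Timp1 could not have passed it as higher, because their control shares left no room for a ratio of 2. The odds ratio of Mmp3 was 73.3, the largest of the 6 members, on a measure that widens ratios of high shares. The median log2 ratio of shares was 0.21 for the 6 members and -0.08 for all 2323 genes. Mmp9 and Mmp12 were listed in the control table alone and were detected in 7.46% and 6.08% of the control cells. No FGF2 value was recovered for either, and no comparison was made.

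Free RNA gives counts in cells that do not make a gene, so the shares in clusters far from the stroma are given beside those of the libraries. In the authors' deposited table, the mast cell-like FGF2 cluster 15, led by the protease genes Cma1, Mcpt4 and Mcpt2 and with 10 of 10 mast cell markers, had Mmp3 in 81.2%, Timp1 in 46.9%, Mmp2 in 31.2%, Mmp13 in 17.2%, Mmp11 in 7.8% and Timp3 in 7.8% of its cells. For the endothelial-like control cluster 14, with 8 of 9 endothelial markers, the authors' deposited table gave Mmp2 in 40%, Mmp3 in 20%, Timp1 in 20% and Mmp11 in 13.3% of the cells, and Mmp13 and Timp3 had no entry. Both clusters were small, at 0.64% of the FGF2 cells and 0.298% of the control cells, so their shares rest on few cells. Neither cell type is certain to lack these genes, and as different cell types their shares stand side by side without a comparison. The part of free RNA in the differences between the libraries was not tested.

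**Figure D2:**
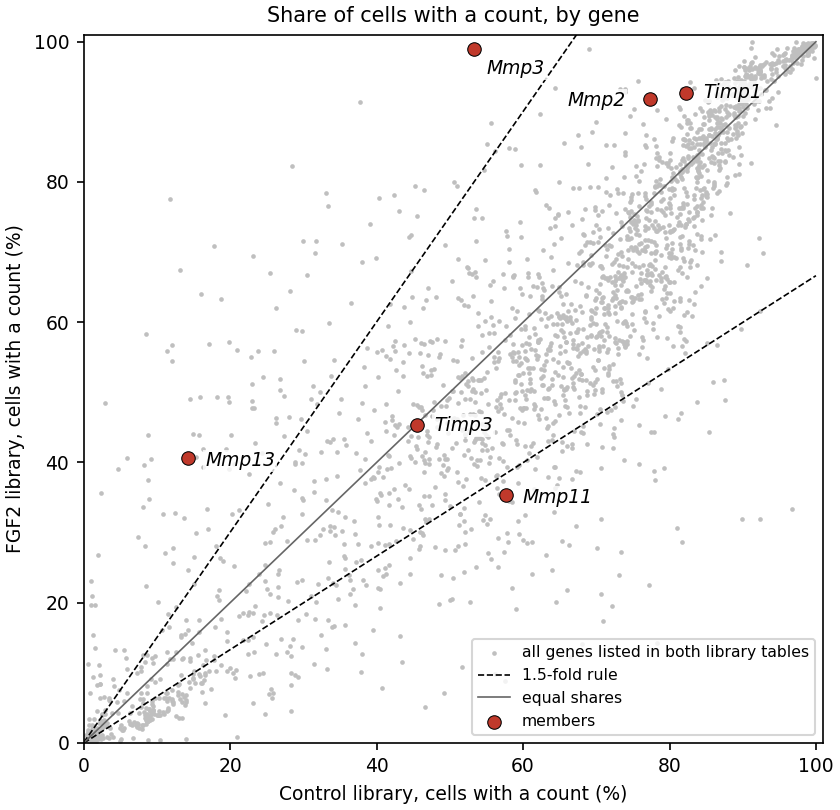
Share of cells with a count in the FGF2 library (vertical axis, %) against the control library (horizontal axis, %) for the 2323 genes listed in both library tables (grey) and the 6 members among them (red); dashed lines mark 1.5-fold and the solid line equal shares. Mmp3 and Mmp13 lie above the upper dashed line, Mmp11 lies below the lower one, and Timp3 lies on the line of equal shares at 45.3% and 45.6%.

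Within each library the members did not follow 1 common pattern over the clusters. Enzyme and inhibitor genes were listed higher together in some stromal clusters and apart in others, and no contractile, epithelial-like or mast cell-like cluster had a member listed higher. The same held for FGF2 clusters 3, 5, 9, 10 and 14 and control clusters 0, 7, 8 and 14. The plot of levels by cluster shows this for both libraries.

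**Figure D3:**
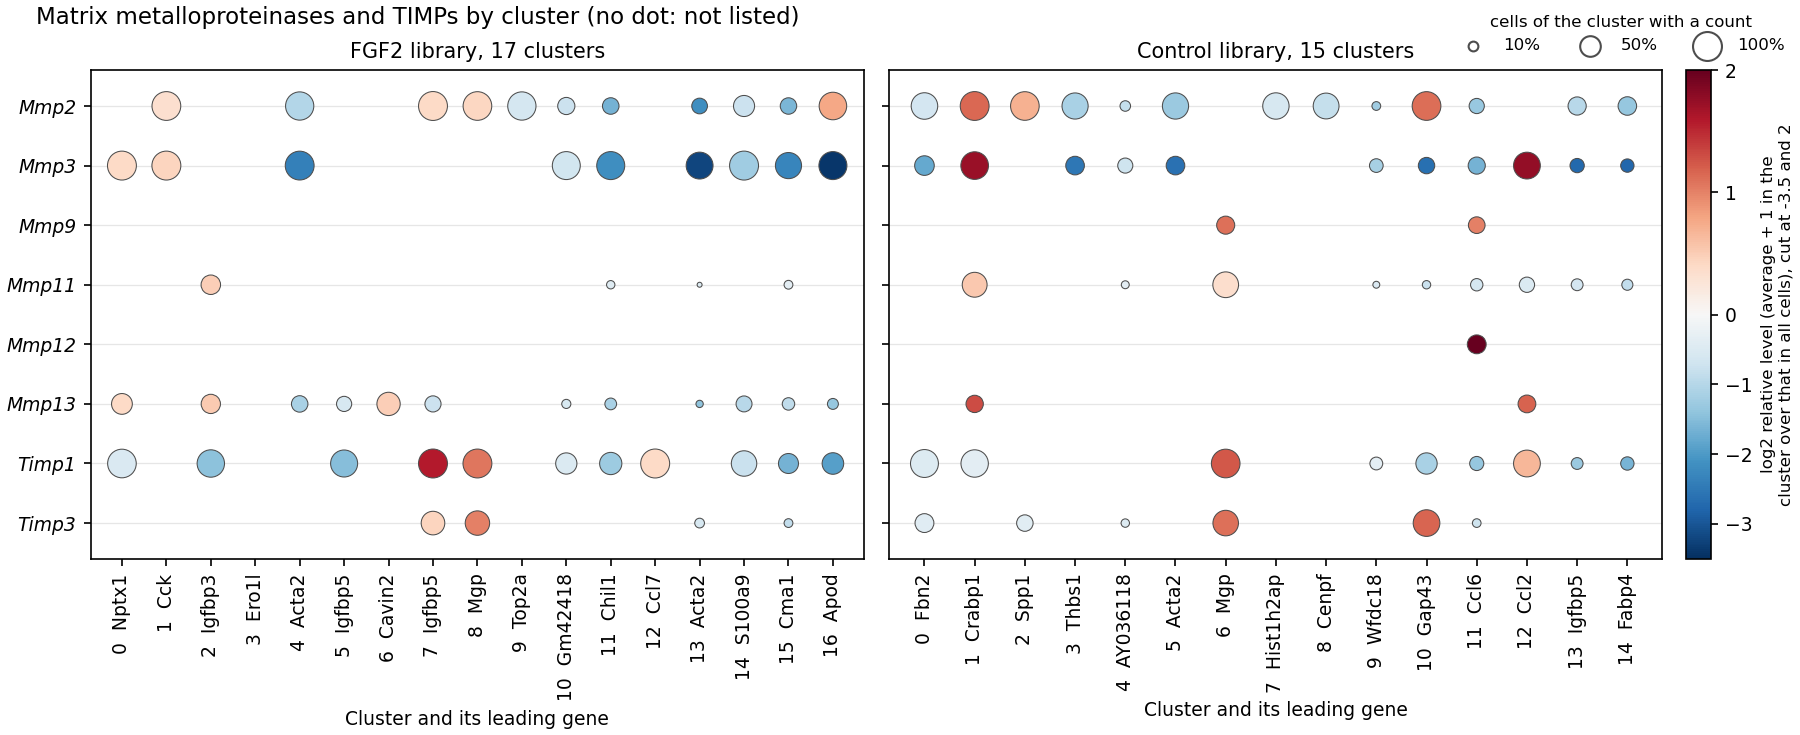
Relative level (colour, log2, red above and blue below the average of all cells) and share of cells with a count (dot area) of the 8 genes in each FGF2 cluster (left) and control cluster (right), with the cluster's number and leading gene on the horizontal axis; an empty place means not listed. Timp1 and Timp3 are red together in FGF2 clusters 7 and 8 and control cluster 6, Mmp3 and Mmp13 in FGF2 cluster 0 and control clusters 1 and 12, and Mmp12 appears once, in control cluster 11.

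Mmp13 had the most entries of any member in the FGF2 table, in 12 of 17 clusters. Its relative level was highest in FGF2 clusters 2 (1.44, fibroblast-like and led by Igfbp3, Lpl and Clu), 6 (1.40, led by Cavin2, Cemip and Ccl2) and 0 (1.32, led by Nptx1, Cdkn2a and Ctsl). Per the authors' deposited table, 43.4%, 64.2% and 50.8% of the cells of these 3 clusters had a count, so the cluster with the largest share was not the one with the highest level. The order then went down over cluster 10 (0.677), 5 (0.669), 7 (0.595), the mast cell-like cluster 15 (0.536), the S100a9-led cluster 14 (0.507), the epithelial-like cluster 11 (0.457), the myofibroblast or smooth muscle-like cluster 4 (0.454), the glial-like cluster 16 (0.391) and cluster 13 (0.380). The 5 clusters without an entry averaged 1.03, with a mean share of 45.2%.

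In the control library Mmp13 was listed in 2 clusters, the fibroblast-like cluster 1 (2.47, led by Crabp1, Mmp3 and Cpxm1) and cluster 12 (2.28, led by Ccl2, Mt1 and Hmox1). By the authors' deposited table these held a count in 34.8% and 36.6% of their cells. Cluster 1 made up 14.5% of the control cells and held 35.4% of all control cells with an Mmp13 count. The other 13 clusters averaged a share of 10.5% and a relative level of 0.736. In the FGF2 library the largest part held by a cluster with an entry was smaller, with 20.5% of the Mmp13-positive cells in cluster 0, 11.5% in cluster 2 and 10.1% in cluster 6.

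Mmp3 was detected in nearly every FGF2 cell, and its level differed between clusters where its share did not. The contractile FGF2 cluster 4, led by Acta2, Tagln and Thbs1, had a relative Mmp3 level of 0.190, while the authors' deposited table gave a count in 99.2% of its cells. FGF2 clusters 1 (led by Cck, Odc1 and Tac1) and 0 were highest, at 1.37 and 1.32, with counts in 99.9% and 99.8% of their cells in the authors' deposited table. Below them came cluster 10 (0.628), 14 (0.421), the epithelial-like cluster 11 (0.221), the mast cell-like cluster 15 (0.201), cluster 4, cluster 13 (0.107) and the glial-like cluster 16 (0.0943). The highest level was 14.5 times the lowest, over shares of 81.2% to 100% in the authors' deposited table.

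Within the control library, Mmp3 differed between clusters in share as well as level. Clusters 12 and 1 had relative levels of 3.39 and 3.31, and the authors' deposited table gave counts in 85.4% and 90.9% of their cells. All other listed control clusters were below the average, with cluster 4 at 0.608, the epithelial-like cluster 9 at 0.443, the macrophage-like cluster 11 at 0.318 and cluster 0 (led by Fbn2, Vegfd and Dlk1) at 0.291. Cluster 3 (led by Thbs1, Vegfd and Ptx3) followed at 0.175, then the contractile cluster 5 at 0.165, the glial-like cluster 10 at 0.161, the basal epithelial-like cluster 13 at 0.149 and the endothelial-like cluster 14 at 0.146. The highest level was 23.3 times the lowest. In cluster 1, Mmp3 ranked 2 of the 239 genes listed higher, Mmp13 ranked 5 and Mmp2 ranked 7.

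Cell classes found in both libraries gave a further view of the Mmp3 share. Epithelial-like cells had a count in 93.5% of FGF2 cluster 11, against 21.1% and 23.1% of control clusters 9 and 13, in the authors' deposited table. Glial-like cells had one in 93.5% of FGF2 cluster 16, against 31.0% of control cluster 10, again from the authors' deposited table. These glial-like clusters were small, at 0.307% of the FGF2 cells and 1.15% of the control cells. Contractile genes such as Acta2 and Tagln were listed higher in more than 1 cluster of each library, and the authors' deposited table gave an Mmp3 count in 99.2% of FGF2 cluster 4 and 85.9% of FGF2 cluster 13, against 40.4%, 26.0% and 40.3% of control clusters 3, 4 and 5. Relative levels in all of these clusters were below the average, the highest being 0.608 in control cluster 4. Shares of Mmp3 as high as 81.2% stood in the mast cell-like FGF2 cells at a level of 0.201, beside levels of 0.221 in FGF2 cluster 11, 0.190 in cluster 4 and 0.0943 in cluster 16, and the part of free RNA in these shares was not tested.

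**Figure D4:**
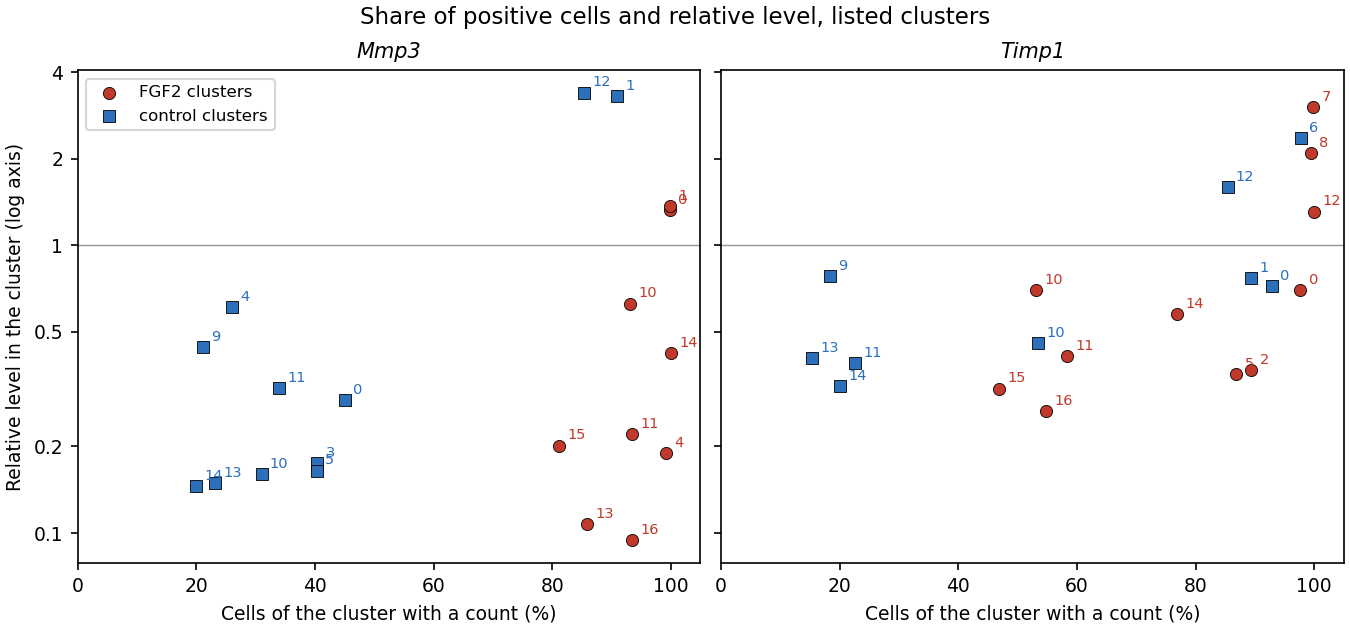
Relative level (vertical axis, log scale) against the share of cells with a count (horizontal axis, %) for Mmp3 (left) and Timp1 (right), 1 point per listed cluster with its number, FGF2 clusters as red circles and control clusters as blue squares. FGF2 clusters spread in Mmp3 level between 0.0943 and 1.37 at shares of 81.2% or more, while control clusters spread in both measures.

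Mmp2 was broad in both libraries, with its highest levels in glial-like clusters and in 1 fibroblast-like cluster of each library. The fibroblast-like FGF2 cluster 2 had no Mmp2 entry. In the FGF2 library the levels were highest in the glial-like cluster 16 (1.71), the fibroblast-like cluster 8 (1.35), cluster 7 (1.31, led by Igfbp5, Il11 and Slpi) and cluster 1 (1.26). They were lower in the proliferating-like cluster 9 (0.657), clusters 10 (0.596) and 14 (0.596), the contractile cluster 4 (0.489), the mast cell-like cluster 15 (0.332), the epithelial-like cluster 11 (0.320) and cluster 13 (0.224). Shares ran between 28.2% and 99.8% in the authors' deposited table, and the 6 clusters without an entry had a mean share of 97.6%.

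In the control library the fibroblast-like cluster 1 had the highest Mmp2 level, 2.22, followed by the glial-like cluster 10 at 2.18 and cluster 2 (led by Spp1, Cxcl13 and Saa3) at 1.63. The other 10 listed clusters lay between 0.392 in the endothelial-like cluster 14 and 0.666 in the proliferating-like cluster 7. Glial-like cells were thus among the 2 highest clusters for Mmp2 in each library, with counts in 90.3% of FGF2 cluster 16 and 98.3% of control cluster 10 in the authors' deposited table. Cluster 16 was 0.307% of the FGF2 cells and cluster 10 was 1.15% of the control cells, so the glial-like values rest on few cells. Their Mmp3 levels of 0.0943 and 0.161 were at the low end.

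Mmp2 and Mmp3 were listed lower in the 5 clusters in which contractile markers were the marker class found (at least 3 of 7 listed higher), 2 with FGF2 and 3 in control cells. This was not particular to them, since both were also listed lower in FGF2 clusters 10, 11, 14 and 15 and control clusters 0, 9, 11, 13 and 14. Control cluster 0, which no marker class named, had 4 members listed lower, with Mmp3 at 0.291 and Mmp2 at 0.645. FGF2 cluster 4 had Mmp2, Mmp3 and Mmp13 listed lower, 3 of the 6 members in that table, where 5.33% of the listed genes were lower in that cluster. Control cluster 5 had Mmp2 (0.404) and Mmp3 (0.165) listed lower, 2 of 8 members against 4.68% of the listed genes. Control cluster 3 had the same pair lower, at 0.455 for Mmp2 and 0.175 for Mmp3. FGF2 cluster 13 had 5 members lower and control cluster 4 had 4, and these were the clusters with low shares of most listed genes. The medians of the listed shares were high in the others, at 87.1% in FGF2 cluster 4, 93.5% in control cluster 3 and 90.7% in control cluster 5. The members were drawn from genes the tables list and had more entries per gene than the listed genes as a whole. The percentages are thus not a like background, and these counts describe the clusters and were not tested.

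The highest Mmp11 level was 1.97 times the lowest with FGF2 and 2.63 times in control cells, on a scale whose offset understates a low gene. The gene was listed higher in 1 FGF2 cluster, cluster 2 (1.41), and in control clusters 1 (1.45) and 6 (1.27, led by Mgp, Pmepa1 and Timp1). The authors' deposited table gave a count in 44.4% of the cells of FGF2 cluster 2, and in 73.3% and 78.6% of those of control clusters 1 and 6. The clusters listed lower were non-stromal or had low shares, except control cluster 12. Their levels were 0.732 in the epithelial-like FGF2 cluster 11, 0.780 in the mast cell-like cluster 15 and 0.715 in cluster 13. In the control library they ran between 0.552 in the endothelial-like cluster 14 and 0.778 in cluster 4. The authors' deposited table gave shares of 1.4% to 7.8% in these FGF2 clusters and 4.2% to 26.8% in these control clusters. The 13 FGF2 clusters with no entry averaged 35.9% positive cells and the 6 control clusters with no entry 65.6%. These clusters held 84.25% of the FGF2 cells and 61.1% of the control cells. They were not matched between the libraries, so the 2 averages add no separate comparison.

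Mmp9 and Mmp12 were restricted in the entries they had. Mmp9, gelatinase B, was listed in 2 control clusters, cluster 6 (2.15) and the macrophage-like cluster 11 (2.02). The authors' deposited table gave a count in 37.9% and 32.1% of their cells, and the other 13 clusters averaged 4.80%. Macrophages are a known source of the enzyme, and cluster 6 held 36.4% of the Mmp9-positive control cells against 4.54% in cluster 11. Cluster 6 was 7.16% of the cells and cluster 11 was 1.05%.

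Mmp12, the macrophage metalloelastase, had 1 entry, in the macrophage-like control cluster 11, with the highest relative level of any member, 16.1. There it ranked 6 of 310 genes listed higher, and the authors' deposited table gave a count in 41.5% of the cells against 5.7% of the other cells. Since the cluster is small, it held 7.19% of the Mmp12-positive control cells. The average over the other 14 clusters was 0.840. In the FGF2 library, cluster 14, led by S100a9 and S100a8, had 4 of 12 macrophage markers and 3 neutrophil markers listed higher. Each class had 2 markers among the cluster's 10 leading genes. The cluster therefore goes by its leading genes here, and Mmp12 had no entry in it.

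The TIMP genes shared their highest stromal clusters in each library. Timp1 reached a relative level of 3.02 in FGF2 cluster 7 and 2.09 in the fibroblast-like FGF2 cluster 8, and Timp3 reached 1.36 and 2.01 in the same clusters. In control cluster 6 Timp1 was at 2.35 and Timp3 at 2.16. Timp1 ranked 6 of the 177 genes listed higher in FGF2 cluster 7 and 5 of the 111 in FGF2 cluster 8, where Timp3 ranked 7. In control cluster 6, Timp1, Timp3 and Mmp9 ranked 3, 4 and 5 of 143.

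Counts by cluster followed from these values. In FGF2 cluster 7, 3 of the 6 members in that table were listed higher (Timp1, Timp3 and Mmp2), against 5.79% of the listed genes, and Mmp13 was listed lower at 0.595. The same 3 were listed higher in FGF2 cluster 8, against 3.63%. In control cluster 1, 4 of 8 were listed higher (Mmp3, Mmp13, Mmp2 and Mmp11), against 5.41%, and Timp1 was lower at 0.768. In control cluster 6, 4 of 8 were listed higher (Timp1, Timp3, Mmp9 and Mmp11), against 3.24%. Mmp9 entered the control table only through clusters 6 and 11, and Mmp13 only through clusters 1 and 12, where each was high. The counts of control clusters 6 and 1 thus each include a gene listed only where it was high. The members were drawn from genes the tables list, and these clusters had the most members listed higher in their library. Members also had more entries per gene than the listed genes as a whole. With FGF2 these were 51 entries over 6 genes against 7725 over 3058, and in control cells 53 over 8 against 10368 over 4419. The percentages of all listed genes are thus not a like background. The counts therefore describe the clusters and were not tested. FGF2 cluster 3, led by Ero1l, Il33 and Fam162a, had no entry of any member.

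Timp1 also differed among the other FGF2 clusters. Cluster 12, led by Ccl7 and Ccl2, stood at 1.31, while clusters 0, 2 and 5 stood at 0.698, 0.368 and 0.357, although the authors' deposited table gave counts in 97.7%, 89.4% and 86.9% of their cells. Cluster 5 was led by Igfbp5, Cd24a and Nr4a2, and cluster 2 was fibroblast-like, as was cluster 8 with its Timp1 level of 2.09. Mmp13 was above the average in clusters 0 and 2 (1.32 and 1.44) and below it in cluster 5 (0.669), so low Timp1 stood beside either. Clusters 10, 14 and the epithelial-like 11 stood at 0.70, 0.578 and 0.412, and the lowest Timp1 levels with FGF2 were 0.318 in the mast cell-like cluster 15 and 0.265 in the glial-like cluster 16.

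In the control library Timp1 was also listed higher in cluster 12 (1.59), which was high in Mmp3 and Mmp13 as well. It was lower in clusters 1 (0.768) and 0 (0.722), the glial-like cluster 10 (0.458), the basal epithelial-like cluster 13 (0.405), the macrophage-like cluster 11 (0.391) and the endothelial-like cluster 14 (0.324). The epithelial-like cluster 9 stood at 0.782. Of these, the shares in the authors' deposited table were 89.3% and 92.9% in clusters 1 and 0 and between 15.4% and 53.4% in the others.

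Timp3 had its highest control level in the glial-like cluster 10, 2.25, where the authors' deposited table gave a count in 84.5% of the cells. It was below the average in clusters 2 (0.758), 0 (0.751) and 4 (0.721) and in the macrophage-like cluster 11 (0.602). With FGF2 it was low in cluster 13 (0.666) and the mast cell-like cluster 15 (0.551), and the 13 clusters with no entry had a mean share of 43.1%. The equal library shares of Timp3 therefore covered clusters with shares between 7.8% and 70.7% with FGF2 and between 7.0% and 84.5% in control cells, per the authors' deposited table.

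Across clusters, the genes whose relative levels ran most like a member's were named by Pearson's r of the natural log of the relative level, over clusters in which both were listed, with at least 6 shared clusters. The clusters share a library, depth and free RNA, so these r are descriptions with no p. For Mmp3 with FGF2 they were Agtr2 (r = 0.987, 7 clusters), Mmp10 (0.984, 6 clusters), a stromelysin encoded in the same group on chromosome 9, and Cped1 (0.976, 7 clusters). For Mmp3 in control cells they were Crabp1 (0.984, 10 clusters), Spp1 (0.981, 9 clusters) and Lum (0.979, 10 clusters). No gene was on both lists.

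Angptl2, a secreted angiopoietin-like protein gene, was near Mmp2 in both libraries, with r = 0.969 over 7 FGF2 clusters and 0.994 over 10 control clusters. The others near Mmp2 were Cst3 (0.964, 7 clusters) and Gpm6b (0.944, 8 clusters) with FGF2, and Gja1 (0.995, 6 clusters) and Tenm3 (0.989, 6 clusters) in control cells. For Mmp13 with FGF2 they were Cdh11 (0.991, 7 clusters), a cadherin of mesenchymal cells, Myof (0.990, 7 clusters) and Tspan4 (0.978, 6 clusters).

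Timp1 with FGF2 ran with Hgf (0.992, 6 clusters), a growth factor of stromal cells, Il11 (0.989, 7 clusters) and Angptl2 (0.987, 6 clusters). In control cells it ran with Hacd2 (0.982), Maged2 (0.964) and Mxra7 (0.958), each over 6 clusters. For Mmp11 in control cells the nearest were Mfap4 (0.993, 6 clusters), Mrc2 (0.992, 7 clusters), an endocytic collagen receptor, and Ctsk (0.990, 8 clusters), a collagen-cutting cathepsin. For Timp3 in control cells only 13 genes shared enough clusters to be compared, and the best was Fn1 at 0.429 over 6 clusters. The other members were compared with between 183 and 338 genes each, so their highest r and that of Timp3 are not on a like footing.

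Between members, r was 0.925 for Mmp3 and Mmp13 over 8 FGF2 clusters and 0.942 for Mmp3 and Timp1 over 6, but 0.102 for Mmp13 and Timp1 over 9. In control cells Mmp3 and Timp1 had r = 0.824 over 8 clusters, Mmp3 and Mmp11 0.75 over 8, and Mmp2 and Mmp3 0.495 over 10. Each r leaves out the clusters in which 1 of the pair was not listed, so pairs rest on different clusters.

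Of the other genes of the pathway, most that could be compared stayed within 1.5-fold between the libraries. Among 17 other Mmp genes 3 were compared and all 3 stayed within it: Mmp14, a membrane-bound enzyme that activates the Mmp2 proenzyme, in 80.1% of FGF2 cells and 85.3% of control cells, Mmp23 in 56.1% and 63.7%, and Mmp19 in 55.7% and 40.0%. Mmp10 was listed with FGF2 alone, in 25.8% of cells. Timp2, which also takes part in that activation, was in 91.8% of FGF2 cells and 89.6% of control cells.

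Plasmin cuts several MMP proenzymes, and genes of its activation differed in either direction. Serpine2, an inhibitor of plasminogen activators, was in 68.6% of FGF2 cells and 38.0% of control cells. Plat, the tissue-type activator, was in 31.2% of FGF2 cells and 55.1% of control cells. Plau, the urokinase-type activator, was listed with FGF2 alone, in 35.7% of cells, and its receptor gene Plaur in control alone, in 13.4%. These 2 were picked after their values were seen.

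Of 7 compared activators and binders of MMPs, 1 was higher and 6 were within 1.5-fold, where 7.53% of all genes were higher. The higher gene was Lcn2, lipocalin-2, which binds Mmp9, in 43.9% of FGF2 cells and 8.79% of control cells. Bsg, a membrane glycoprotein known as an inducer of MMPs, was within it, at 94.6% and 89.8%. None of 6 compared cathepsins passed the rule, among them Ctsl in 99.2% of FGF2 cells and 91.1% of control cells.

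Of 3 ADAM and ADAMTS genes compared, 2 were lower, where 15.1% of all genes were lower. They were Adamts5, an aggrecanase, in 14.2% of FGF2 cells and 78.3% of control cells, and Adamts1 in 38.8% and 77.8%. Another 9 were listed in the control table alone. Of 18 substrate genes compared, 0 were higher, 3 were lower and 15 were within 1.5-fold, a share of lower genes close to the 15.1% of all genes, with a median log2 ratio of -0.19 against -0.08 for all genes. The lower ones were the fibrillar collagen gene Col3a1 (32.0% of FGF2 cells and 92.4% of control cells), the elastin gene Eln (15.3% and 43.2%) and the versican gene Vcan (38.6% and 67.8%).

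Among 11 compared transcription factors known at MMP promoters, 1 was higher and 10 were within 1.5-fold, close to the 7.53% of all genes that were higher. The higher one was Fosl1, a FOS family partner in AP-1, in 64.0% of FGF2 cells and 16% of control cells. Jun was in 86.8% of FGF2 cells and 67.5% of control cells, and Junb in 80.1% and 80.3%. The ETS family genes Etv1 and Etv4, named after their values were seen, were listed with FGF2 alone, in 73.1% and 52.0% of cells.

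The integrated table joined both libraries in 14 clusters. Its values appear to be batch-integrated, so a difference between its clusters is not one of expression. Its recovered share was above the shares of both libraries for 5 of the 6 members compared, such as 58.0% for Mmp13 against 40.6% (FGF2) and 14.3% (control), so it is not a share of cells with a count.

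Integrated cluster 0, led by Ctsl, Mmp13 and Crabp1, had Mmp13 at a relative value of 1.66 and Mmp3 at 1.5. The part of its cells with an Mmp13 value above 0 was 56.0%, against 58.5% of the other cells in the authors' deposited table, so the higher average stood beside no higher share. Mmp3 was highest in cluster 3 (1.67, led by Mgp, Lum and Igfbp3), and Mmp2 was highest in the glial-like cluster 12 (1.48) and cluster 3 (1.36). Mmp11 had its only higher entry in cluster 7 (1.62, led by Ifitm1, Lpl and Saa3).

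The TIMP genes and Mmp9 met again in integrated cluster 10, led by Mgp, Pmepa1 and Slc20a1, with Timp1 at 3.10, Mmp9 at 2.09 and Timp3 at 1.38. Mmp3 (0.407) and Mmp2 (0.762) were below the average there. Timp1 was also high in clusters 8 (1.57, led by Il1rl1) and 1 (1.56, led by Igfbp5, Slpi and Il11), and Timp3 was highest in the glial-like cluster 12 (1.72). The integrated table is no independent repeat of the library tables, since the series has the same 2 libraries throughout.

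**Figure D5:**
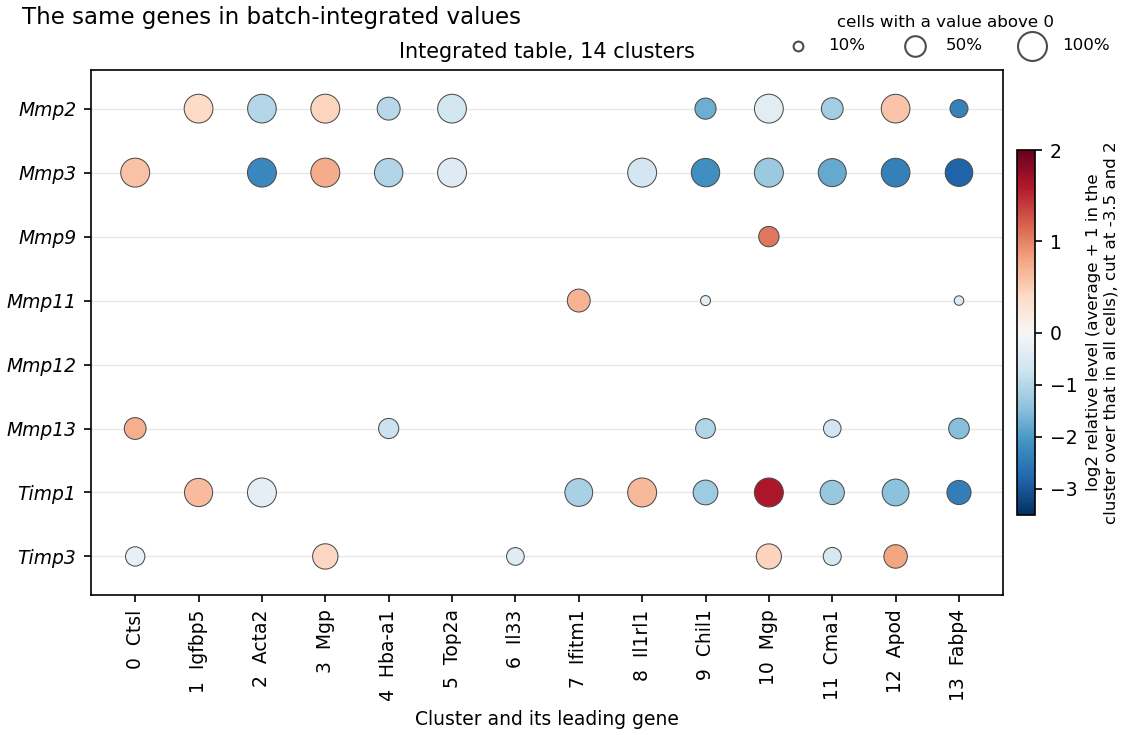
Relative value (colour, log2) and share of cells with a value above 0 (dot area) of the same genes in the 14 clusters of the integrated table, with the cluster's number and leading gene on the horizontal axis; an empty place means not listed. Timp1 is darkest in cluster 10 at 3.10, and Mmp3 and Mmp13 are red together in cluster 0.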

How the data were processed

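Single-cell RNA sequencing of 1 FGF2 and 1 control library gave 3 deposited tables, for the clusters of each library and for integrated clusters. Cell Ranger 4.0 and the build mm10 are named in the submitters' processing notes. The sources used here do not give the cell filters, doublet treatment, normalization, clustering or tests. Each entry compares, per the file headers, a cluster with all other cells. The log ratio deposited by the authors was read as a natural log, since averages of 8 control genes with no positive cell in several clusters then varied by 0.00169%, against 0.0488% with base 2. The shares are fractions deposited by the authors, printed as percentages. The p-values deposited by the authors, all under 0.01 (the largest was 0.00999), come from cells of 1 library, which are not replicates, and are not printed.

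A gene's share over a library is the mean of its listed pair of shares, inside and outside a cluster, weighted by the fraction of cells in the cluster. Least squares over 1490 FGF2 and 2077 control genes listed in at least 2 clusters gave the parts, which summed to 99.95% and 100.04%, with residuals of 0.0242 and 0.0238 points. On tables built with known answers, shares came back within 0.0502 (FGF2, 3058 genes) and 0.0508 points (control, 4419 genes). Ratios between libraries had 0.1 points added to both shares and a size rule of 1.5-fold. No interval is given, because the sources used here do not give the number of cells behind the tables. All 8 genes are named. Of the pathway lists, genes past 1.5-fold and at most 3 others by share are named, and the 3 most like each member; 1 gene of these lists is not reported here. Clusters were named from fixed markers, at least 3 listed higher, and otherwise go by number and leading genes. Named clusters are at times given by number alone, and FGF2 cluster 14, with macrophage and neutrophil markers, by its leading genes. The members and lists were chosen with earlier results of these data known. Alternatives were a 2-fold rule, odds ratios, a pseudocount of 1 point and medians in place of means over a gene's own clusters. Further ones were 2 restrictions of the clusters, a floor of 1% and base 2. The least squares step was the same in all of them. Python 3.11.15, numpy 2.4.6 and pandas 2.3.3 were used.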

Additional observations from a re-analysis of the deposited data

How the results depend on the processing

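The count of members at least 1.5-fold higher with FGF2 was 2 and became 1 (Mmp13) with a 2-fold rule and 4 (Mmp2, Mmp3, Mmp13 and Timp1) with odds ratios. Under the 2-fold rule, the control shares of Mmp2, Mmp3 and Timp1 left them no room to be called higher. The count of lower members was 1 and became 0 with a 2-fold rule. The odds ratio changes the count by construction, since it widens ratios of high shares, and 20.2% of all genes were then higher and 35.9% lower. Both counts stayed at 2 and 1 with a pseudocount of 1 point, with medians, without the clusters of low shares, in stromal clusters only and with a floor of 1%. Of 30 settings for single members, 28 kept the side of the rule; the other 2 were the odds ratios of Mmp2 (3.24) and Timp1 (2.69). With the log ratio read as base 2, all 149 relative levels stayed on their side of 1, the largest moving to 7.23 from 16.1 and the smallest to 0.195 from 0.0943. No paired analysis was possible because each group had 1 library and no test was made. Depth per cell was unknown, so a difference in depth between the libraries cannot be told apart from a difference in shares.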
